A study of Mus musculus with 12 samples.

Results

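Thrombospondin and Sparc-related genes are 10 genes of secreted matrix proteins, chosen by their annotated symbols: Thbs1, Thbs2, Thbs3, Thbs4, Smoc1, Smoc2, Sparc, Sparcl1, Spock1 and Spock2. All 10 were found among the 19938 genes of the adult table and among the 18194 genes of the newborn table. Where several probe sets stood for a gene, the one with the highest mean over the arrays of its table was used. The choice also used measured values of Smoc1, which moves in opposite directions at the 2 ages, so the differences of Smoc1 between mutant and wild-type ovaries are described here without a test. The other members were named by family, with earlier results of these data known, among them that Thbs4 is one of the strongest falls in the adult mutant.

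The arrays measured RNA of mouse gonads with and without Foxl2, a forkhead transcription factor of granulosa cells, the somatic cells around the oocyte. The adult arrays, at 8 weeks, held 2 wild-type ovaries, 3 ovaries labelled Foxl2 mutant with the genotype Foxl2 flox/flox x CreEBD, and 3 wild-type testes, each from a single animal perfused with buffered saline. Testis RNA came from 0.25 of a testis. The newborn arrays, at postnatal day 3 (P3), held 2 pools of wild-type ovaries and 2 pools of Foxl2 knockout (KO) ovaries, with RNA of more than 10 females in each pool and no perfusion. The sources used here do not give the promoter that drives Cre, any inducing agent, whether controls carry a floxed allele or Cre, or how the KO allele was built. Adult values are on the log2 scale of the array summary method RMA, and P3 values are linear signals of the method MAS5. The tables come from different platforms, so no difference between the ages was tested.

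Thrombospondins are secreted calcium-binding glycoproteins that work at the cell surface rather than as structural fibres. Thbs1 and Thbs2 carry type 1 repeats, bind the receptors CD36 and CD47 and restrain the growth of blood vessels, which in the ovary are built and dismantled with every follicle and corpus luteum. Sparc (osteonectin) and its relatives share a calcium-binding module, and several of them regulate collagen assembly or growth factor access to cells.

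Foxl2 was lower in every mutant array, at RMA levels of 5.81, 6.04 and 5.73 in adult mutant ovaries against 8.75 and 8.81 in wild-type ovaries. At P3 its signals were 186.4 and 153.7 in the KO pools against 814.5 and 829.9 in the wild-type pools. Whether its probe sets lie in the deleted sequence was not checked. The labelled organs showed their markers: the mean of 6 spermatid genes was 11.3 to 11.4 in testes and 3.96 to 4.28 in adult ovaries, and the mean of 6 oocyte genes was 5.89 to 7.84 in adult ovaries and 3.83 to 3.97 in testes. No value is listed at 0 in either table. The adult wild-type ovaries differed from each other in cell type markers. In wild-type ovary 1 and 2 the oocyte list averaged 7.84 and 5.89, 7 granulosa genes 9.67 and 8.73, and 3 corpus luteum genes 8.53 and 10.53. Of the 10 members, 8 were higher in wild-type ovary 1, by up to 1.47 for Thbs4, while the median over all genes was 0.02. A difference in bulk RNA cannot tell fewer cells of a type from less RNA per cell.

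Proximal promoters are shown because Foxl2 and the Sertoli cell factor Sox9 bind known DNA motifs. They are those of members with a RefSeq entry that passed the test described below in adult mutant ovary. The call of Thbs2 among them was lost in some refits. Entries were matched by symbol for 6 of 10 members (Thbs2, Thbs3, Thbs4, Sparc, Spock1 and Spock2). Each line gives the 250 bases before the annotated start of 1 gene, 5′ to 3′ on the gene's strand, from RefSeq on build GRCm38.p6: Thbs4, the deepest fall, at chr13:92794819-92795068 (minus strand); Thbs2, a smaller fall, at chr17:14694263-14694512 (minus strand); and Spock2, the riser, at chr10:60106007-60106256 (plus strand).
Thbs4: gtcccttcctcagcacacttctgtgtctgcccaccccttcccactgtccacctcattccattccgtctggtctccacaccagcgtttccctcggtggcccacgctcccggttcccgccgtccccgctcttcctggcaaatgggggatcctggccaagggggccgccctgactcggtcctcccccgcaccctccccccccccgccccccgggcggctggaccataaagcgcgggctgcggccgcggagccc
Thbs2: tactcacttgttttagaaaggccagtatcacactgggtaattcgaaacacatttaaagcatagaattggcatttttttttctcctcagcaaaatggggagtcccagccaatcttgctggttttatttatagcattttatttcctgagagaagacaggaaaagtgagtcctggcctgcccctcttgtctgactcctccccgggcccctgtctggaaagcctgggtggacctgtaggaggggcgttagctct
Spock2: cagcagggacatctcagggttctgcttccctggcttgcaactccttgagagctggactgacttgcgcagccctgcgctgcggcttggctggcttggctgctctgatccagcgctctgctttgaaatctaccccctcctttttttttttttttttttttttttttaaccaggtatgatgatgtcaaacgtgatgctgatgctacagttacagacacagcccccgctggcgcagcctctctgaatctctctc
Both strands were searched for 3 motifs, the forkhead strings TGTTTAC and TGTTTGC and the SOX string AACAAT, of which a forkhead and a SOX match can share bases. Capitals would mark a match, and there is none in these 3 windows or in the same windows of Thbs3, Sparc and Spock1. Among 32851 windows of this length, 3.17% hold TGTTTAC, 4.3% hold TGTTTGC, 9.42% hold AACAAT and 15.6% hold any of them, so windows without a match are the rule, and no match says only that these letters are not in these 250 bases. The Thbs4 window is 70.8% G or C, the Thbs2 window 46.8% and the Spock2 window 51.2%, against a median of 52.4% over all windows (quartiles 45.2% and 61.2%).

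In adult mutant ovaries the thrombospondins Thbs1, Thbs2 and Thbs4 and the Sparc relative Smoc2 fell, and the proteoglycan gene Spock2 rose. Smoc1 was lower as well. Thbs4 stood 12.4-fold lower than in wild-type ovaries, Thbs1 4.89-fold, Smoc1 2.40-fold, Smoc2 2.02-fold and Thbs2 1.82-fold, while Spock2 stood 3.60-fold higher. Thbs3, Sparc, Sparcl1 and Spock1 did not pass the threshold (limma, p adjusted over every gene by the Benjamini-Hochberg method, under 0.05). Of the 9 members tested, 4 fell and 1 rose. Groups did not overlap in 8 of the 9, and in 39.9% of all genes. Of all 19938 genes 16.2% passed, 9.55% higher and 6.66% lower. Smoc1 in this comparison helped to choose the list and the fall of Thbs4 was known, so nothing is read from the members' share.

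**Figure D1:**
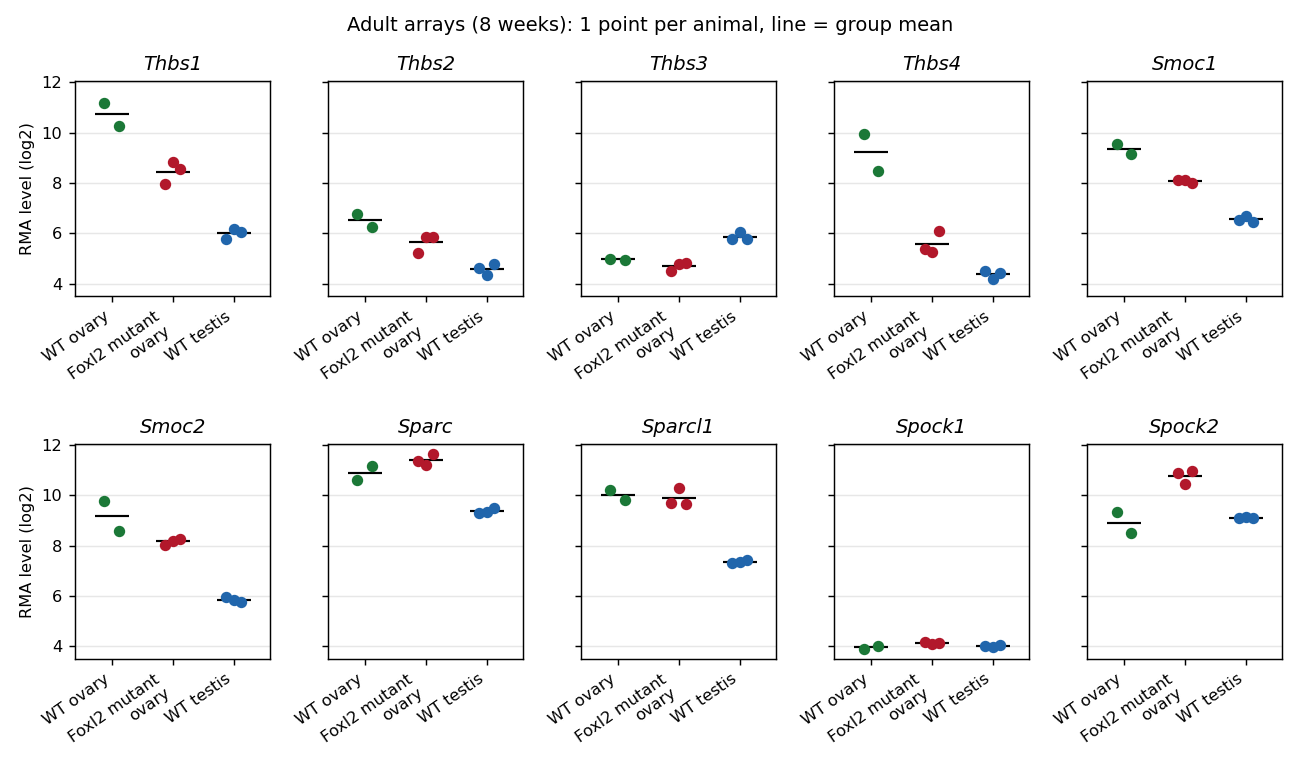
RMA level (log2, y axis) of each of the 10 members in adult wild-type ovaries (2), Foxl2 mutant ovaries (3) and wild-type testes (3), with 1 point per animal and a line at the group mean. Thbs1, Thbs2, Thbs4, Smoc1 and Smoc2 step down from wild-type ovary over mutant ovary to testis, Spock2 is highest in mutant ovary, Thbs3 is highest in testis, and Spock1 stays between 3.89 and 4.18. Levels of different genes come from different probe sets and are not comparable.

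Thbs1, whose protein activates latent TGF-beta and restrains vessel growth, stood at 11.19 and 10.27 in the wild-type ovaries, 7.95, 8.83 and 8.55 in the mutant ovaries and 5.77, 6.17 and 6.04 in the testes. The 3 groups did not overlap, and every mutant ovary lay between the wild-type ovaries and the testes. The mutant and the testis comparison share the wild-type ovaries. The fall in mutant ovary was -2.29 ± 0.29 (SE, n = 3 and 2, limma adjusted p = 4.34e-04). This SE uses the spread of all 8 adult arrays, and a limma fit of the ovaries alone gave adjusted p = 0.00533. The fall was -1.83 when wild-type ovary 1, the higher of the pair, was omitted and -2.75 when ovary 2 was, and both passed. Testis was lower than wild-type ovary by -4.74 ± 0.29 (adjusted p = 1.68e-07), and mutant ovary stayed above testis by 2.45 ± 0.26 (adjusted p = 1.06e-05).

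Thbs2, the closest relative of Thbs1 and likewise an inhibitor of vessel growth, had the same order at a smaller range. Its levels were 6.76 and 6.27 in wild-type ovaries, 5.23, 5.86 and 5.87 in mutant ovaries and 4.61, 4.32 and 4.79 in testes, with no overlap. The fall in mutant ovary was -0.86 ± 0.23 (limma adjusted p = 0.031). This call was lost without wild-type ovary 1 (-0.62, adjusted p = 0.148), without mutant ovary 1 (-0.65, adjusted p = 0.0791) and in a fit of the ovaries alone (-0.86, adjusted p = 0.0821). Testis was lower than wild-type ovary by -1.94 ± 0.23 (adjusted p = 3.32e-05) and than mutant ovary, which stood 1.08 ± 0.21 above it (adjusted p = 9.87e-04).

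Thbs4 belongs to the thrombospondins that lack type 1 repeats, and is known from tendon, muscle and injured tissue. Its level was 9.95 and 8.48 in wild-type ovaries, 5.39, 5.27 and 6.09 in mutant ovaries and 4.51, 4.17 and 4.41 in testes. The 3 groups did not overlap, and the mutant ovaries lay closer to the testes than to the wild-type ovaries. The fall in mutant ovary was -3.64 ± 0.37 (limma adjusted p = 1.07e-04, and 0.00233 in a fit of the ovaries alone). It was larger than the gap of 1.47 between the wild-type ovaries. Omitting wild-type ovary 1 gave -2.90 and omitting ovary 2 gave -4.37. Because this fall was known when the members were named, its p-value is no independent support. Testis was lower than wild-type ovary by -4.85 ± 0.37 (adjusted p = 9.64e-07). Mutant ovary remained above testis by 1.22 ± 0.33 (adjusted p = 0.0086), so the order was wild-type ovary, mutant ovary, testis.

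Thbs3, of the same subgroup as Thbs4 and known from skeletal tissue, went another way. It stood at 4.99 and 4.94 in wild-type ovaries, 4.49, 4.77 and 4.80 in mutant ovaries and 5.79, 6.03 and 5.79 in testes. Testis was the highest group, 0.91 ± 0.15 above wild-type ovary (limma adjusted p = 3.13e-04) and above mutant ovary as well (mutant minus testis -1.18 ± 0.13, adjusted p = 1.51e-05). Mutant and wild-type ovaries did not overlap, yet the difference of -0.28 ± 0.15 missed the threshold (adjusted p = 0.256).

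Sparc, a collagen-binding protein of remodelling tissue, and Sparcl1, its relative from vessel walls and brain, were higher in all 5 adult ovaries than in any testis. Sparc stood at 10.63 and 11.17 in wild-type ovaries, 11.39, 11.22 and 11.67 in mutant ovaries and 9.30, 9.34 and 9.49 in testes. Its difference in mutant ovary was 0.53 ± 0.17 (limma adjusted p = 0.0611), with a 95% interval of 0.15 to 0.90 before adjustment over genes. It passed without mutant ovary 2 (0.63, adjusted p = 0.0459), without wild-type ovary 2 (0.80, adjusted p = 0.00594) or with dim genes left out (0.53, adjusted p = 0.0478), and without wild-type ovary 1 it was 0.26. Sparcl1 stood at 10.23 and 9.81 in wild-type ovaries, 9.70, 10.28 and 9.67 in mutant ovaries and 7.31, 7.34 and 7.44 in testes. The ovary groups of Sparcl1 overlapped, and the difference of -0.14 ± 0.19 (adjusted p = 0.703) had a 95% interval of -0.56 to 0.29. Testis was lower than wild-type ovary by -1.53 ± 0.17 for Sparc (adjusted p = 1.65e-05) and by -2.65 ± 0.19 for Sparcl1 (adjusted p = 5.21e-07). Mutant ovary was above testis by 2.05 ± 0.15 for Sparc (adjusted p = 5.29e-07) and by 2.52 ± 0.17 for Sparcl1 (adjusted p = 2.57e-07).

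Smoc1 and Smoc2 encode modular calcium-binding proteins of basement membranes, of which Smoc1 is a modulator of BMP signalling. Smoc1 stood at 9.54 and 9.14 in wild-type ovaries, 8.13, 8.12 and 7.99 in mutant ovaries and 6.54, 6.68 and 6.43 in testes. The mutant ovaries lay closely together, 1.26 below the wild-type mean (8.08 ± 0.08 against 9.34 ± 0.28, SD, n = 3 and 2), and leaving out 1 array at a time gave differences from -1.46 to -1.06. Testis was lower than wild-type ovary by -2.79 ± 0.14 (limma adjusted p = 3.76e-08) and mutant ovary was above testis by 1.53 ± 0.13 (adjusted p = 1.48e-06). These comparisons share the wild-type and mutant ovaries with the untested one, which helped to choose the list, so their p-values are not free of that choice. Smoc2 stood at 9.79 and 8.58 in wild-type ovaries, 8.05, 8.18 and 8.29 in mutant ovaries and 5.96, 5.82 and 5.75 in testes. Its fall in mutant ovary was -1.01 ± 0.28 (adjusted p = 0.0318), but it was -0.40 (adjusted p = 0.0974) without wild-type ovary 1, and the call was also lost without any one of the mutant ovaries (-0.95 to -1.07, adjusted p = 0.0592 to 0.0898) or in a fit of the ovaries alone (adjusted p = 0.106). Testis was lower than wild-type ovary in Smoc2 by -3.34 ± 0.28 (adjusted p = 1.7e-06), and mutant ovary was above testis by 2.33 ± 0.25 (adjusted p = 1.01e-05).

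Spock1 and Spock2 encode testicans, proteoglycans that join a Sparc-like module to glycosaminoglycan chains. Spock2 stood at 9.35 and 8.49 in wild-type ovaries, 10.89, 10.46 and 10.95 in mutant ovaries and 9.10, 9.12 and 9.10 in testes. The mutant ovaries were above every other adult array, by 1.85 ± 0.22 against wild-type ovary (limma adjusted p = 2.94e-04) and by 1.66 ± 0.20 against testis (adjusted p = 2.66e-05). In a limma fit of the ovaries alone the rise over wild-type ovary had adjusted p = 0.00546. The rise was 2.28 with wild-type ovary 1 omitted and 1.42 with ovary 2 omitted, and both passed. Testis lay between the wild-type ovaries, at a difference of 0.18 ± 0.22 (adjusted p = 0.503), which passed without wild-type ovary 1 (0.61, adjusted p = 0.00974) and turned to -0.24 when ovary 2 was omitted. Spock1 stayed between 3.89 and 4.18 on the 8 adult arrays, and none of its 3 differences, 0.18 ± 0.11, 0.06 ± 0.11 and 0.12 ± 0.10, passed (adjusted p = 0.353, 0.679 and 0.348).

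Most members were higher in ovary than in testis. Of the 10 members 7 were lower in testis than in wild-type ovary and 1, Thbs3, was higher, where 60.3% of all genes passed, 35.9% lower and 24.4% higher. Set against mutant ovary, 8 members were higher in mutant ovary and 1, Thbs3, was lower, where 61.8% of all genes passed, 37.5% higher and 24.3% lower. Both comparisons use the same testes, and both counts include Smoc1, whose ovary values helped to choose the list. In testis all 6 stroma and all 6 endothelial markers were lower than in wild-type ovary (list means 6.32 to 6.52 against 9.53 to 9.83, and 4.57 to 4.64 against 7.38 to 8.06). So were all 7 granulosa, 6 oocyte, 3 corpus luteum and 5 leukocyte markers, and 5 of 6 smooth muscle markers. Higher in testis were all 6 spermatid and 5 of 8 Sertoli markers, but 1 Sertoli marker was lower and 1 smooth muscle marker was higher. Of 5 theca and Leydig markers 3 were lower and 1 was higher. Of 4 adipocyte markers 2 were lower, and of 4 cartilage markers 2 were lower and 1 was higher. Among 4 platelet markers 0 passed. The part of these cell types in the members' differences was not tested.

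**Figure D2:**
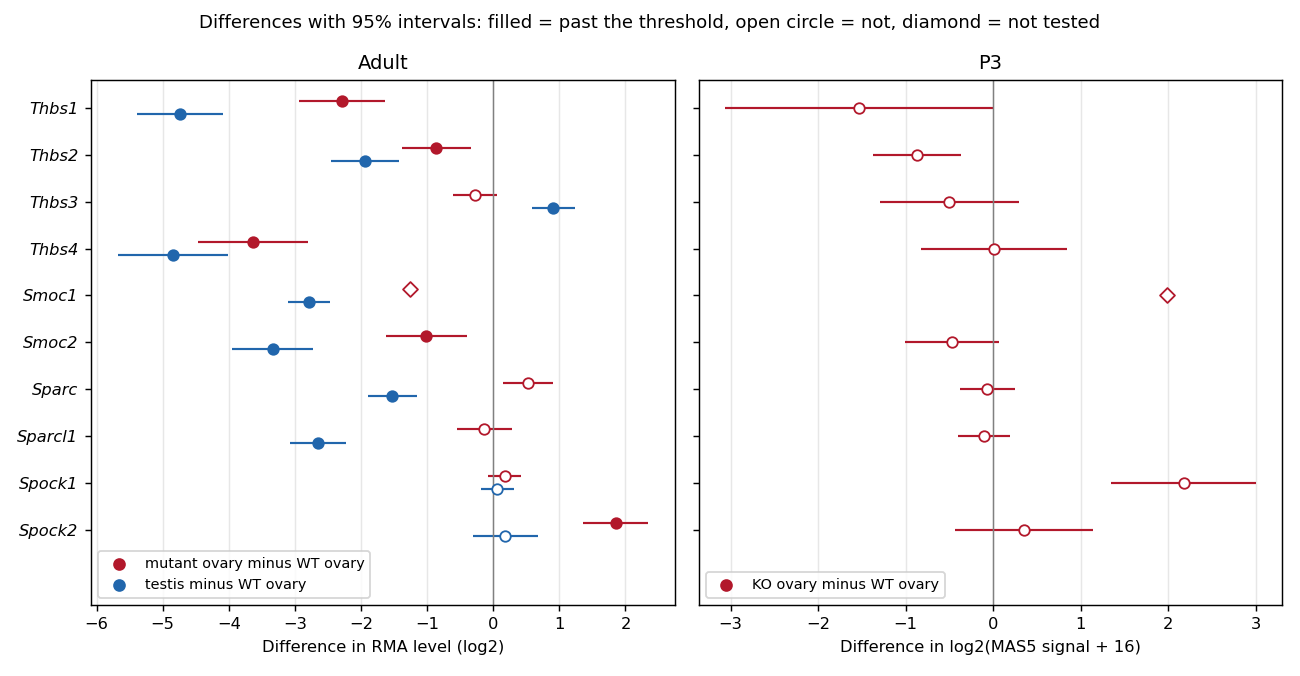
Difference between groups for each member (x axis, log2 units) with its 95% interval from the fit, for adult mutant ovary and testis against wild-type ovary (left) and for P3 KO against wild-type ovary on the log2(signal + 16) scale (right). Filled points passed the threshold, open circles did not, and diamonds mark Smoc1, which was not tested and has no interval, at -1.26 in the adult and 1.98 at P3.

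At P3, Smoc1 was higher in the KO ovaries, opposite to the adult mutant, and Spock1 signals were higher in both KO pools without passing the threshold, while none of the members called in the adult mutant (Thbs1, Thbs2, Thbs4, Smoc2 and Spock2) was called here. Smoc1 gave 648.9 and 717.3 in wild-type and 2673.5 and 2802.5 in KO pools. The KO mean was 4.01-fold the wild-type mean (2738 against 683.1), and the groups did not overlap.

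Of the 9 members tested at P3, 0 passed the threshold (limma on log2(signal + 16), Benjamini-Hochberg adjusted over 18194 genes). Over all genes 0.324% passed. In simulated P3 data of the same size, the fit recovered 0 of 100 genes changed by 1 log2 unit and 28 of 100 changed by 2, so a member that was not called is not thereby unchanged. The simulated noise came from spreads estimated on the same few pools, and only these genes among 18194 were changed. Recovery rates need not hold in the real data. Groups did not overlap in 5 of the 9 members, and in 38.9% of all genes.

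**Figure D3:**
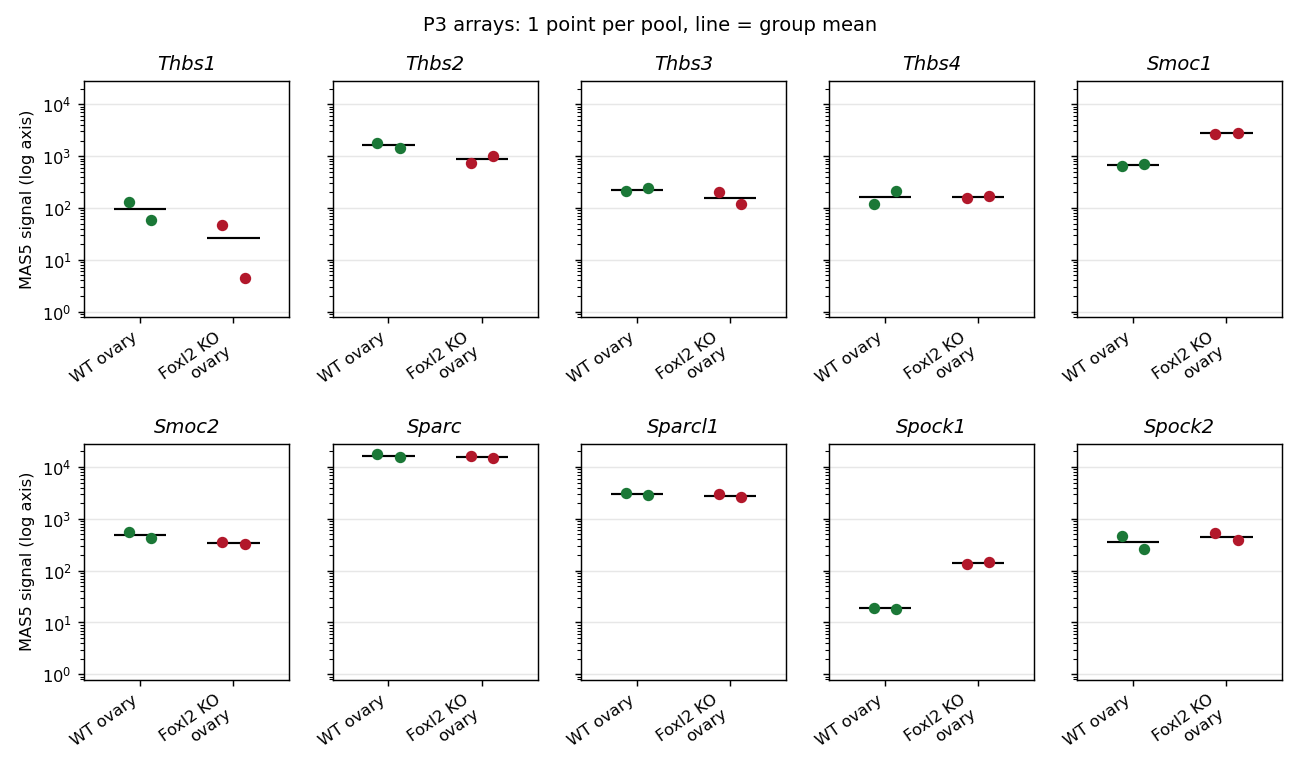
MAS5 signal (y axis, log scale) of each member in the 2 pools of P3 wild-type and the 2 pools of P3 KO ovaries, with a line at the arithmetic group mean. Smoc1 and Spock1 lie higher in both KO pools, Thbs1, Thbs2, Thbs3 and Smoc2 lie lower in both, and Thbs4, Sparc, Sparcl1 and Spock2 overlap.

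Spock1 gave 19.2 and 18.1 in wild-type and 135.0 and 146.0 in KO pools, with no overlap. On the log2(signal + 16) scale the difference was 2.17 ± 0.34 (SE, n = 2 and 2, limma adjusted p = 0.0811). Its size depends on the offset because the wild-type signals are dim and no background floor was set: it was 2.85 with a pseudocount of 1 and 1.31 with 64, and 1.22 with both probe sets averaged, none of them called. A second Spock1 probe set gave 28.7 and 92.0 in wild-type and 27.5 and 146.4 in KO pools, a difference of 0.27 ± 0.76. Its groups overlapped and its error is wide, so it neither repeats nor excludes the difference of the first. Spock2 gave 467.7 and 260.5 in wild-type and 529.4 and 382.5 in KO pools, with overlap, a difference of 0.35 ± 0.32 (adjusted p = 0.832) and a 95% interval of -0.44 to 1.14. Its second probe set gave 29.5 and 74.8 in wild-type and 61.0 and 26.1 in KO pools, a difference of -0.17 ± 0.54, and the average of both gave 0.09.

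Among the thrombospondins, Thbs2 gave 1825 and 1409.1 in wild-type and 745.4 and 1020 in KO pools, a difference of -0.87 ± 0.21 (limma adjusted p = 0.203). Its other probe sets gave -0.92 ± 0.21 and -0.77 ± 0.31, so all 3 were lower in KO by similar amounts. Thbs1 gave 127.5 and 59.8 in wild-type and 47.4 and 4.5 in KO pools, a difference of -1.53 ± 0.63 (adjusted p = 0.524), which was -0.72 without KO pool 2, -2.44 with a pseudocount of 1 and -0.82 with 64, and its second probe set gave -0.23 ± 0.43. KO pool 2 was the lowest of the 4 pools in the first Thbs1 probe set and the highest in the second. Thbs3 gave 212.1 and 239.9 in wild-type and 199.2 and 119.0 in KO pools (-0.50 ± 0.33, adjusted p = 0.733). Thbs4 gave 121.7 and 209.3 in wild-type and 155.0 and 167.8 in KO pools, a difference of 0.01 ± 0.34 (adjusted p = 0.996) with a 95% interval of -0.82 to 0.84.

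Smoc2 gave 559.6 and 426.5 in wild-type and 364.5 and 331.1 in KO pools (-0.47 ± 0.22, limma adjusted p = 0.598). Its second probe set gave 3.9 and 4.4 in wild-type and 22.3 and 3.2 in KO pools, and the average of both gave -0.02. Sparc gave 17480.1 and 15477.5 in wild-type and 16504.4 and 14944.2 in KO pools, a difference of -0.07 ± 0.13 (adjusted p = 0.932). Its other probe sets gave -0.34 ± 0.51 and 0.05 ± 0.37. Sparcl1 gave 3122.3 and 2903.9 in wild-type and 2975.1 and 2638.7 in KO pools (-0.10 ± 0.12, adjusted p = 0.881). The groups of Sparc and of Sparcl1 overlapped, and their 95% intervals ran from -0.38 to 0.25 and from -0.40 to 0.20.

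**Figure D4:**
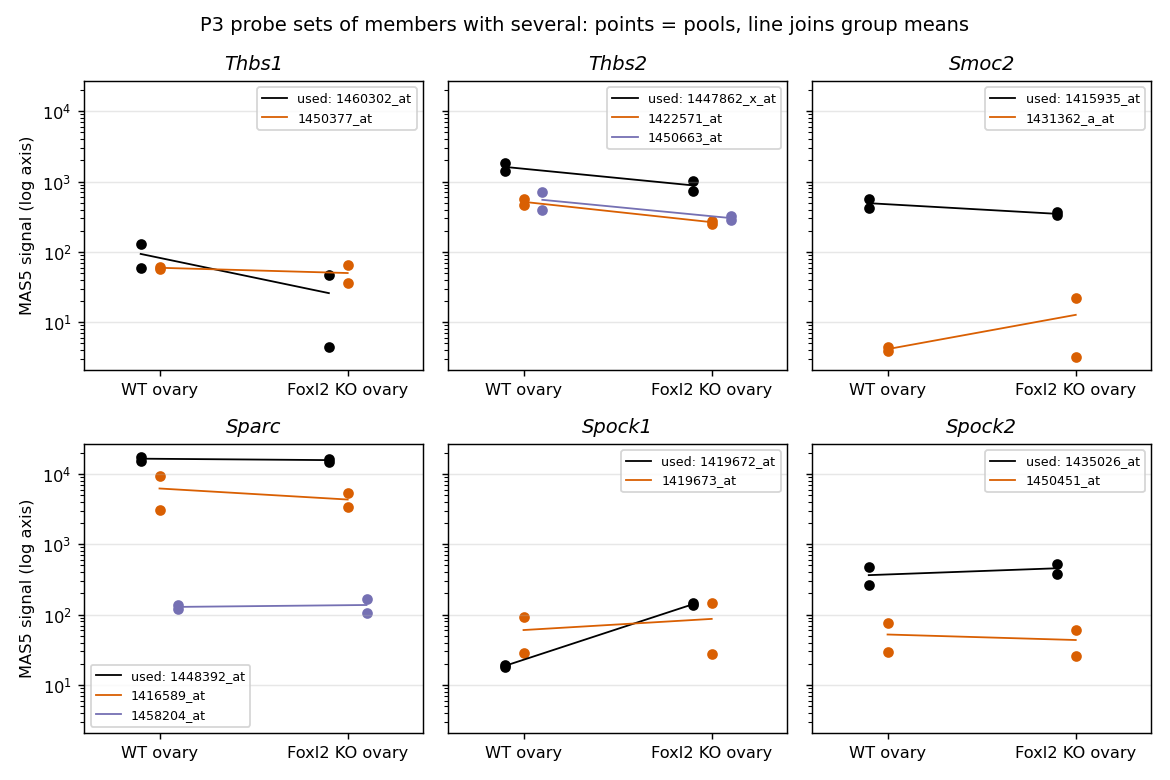
P3 signal (y axis, log scale) of every probe set of the 6 members with more than 1, with points for the pools, lines joining group means, and the probe set used drawn in black. The 3 Thbs2 probe sets lie lower in KO by like amounts, while the differences of Spock1 and Thbs1 are large in the probe set used and small in the other.

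The genes with adult profiles most like those of the strongly changed members were found by the root mean square difference of levels centred on each gene's mean over the 8 adult arrays, as a description. Nearest to Thbs4 were Fst, Nr5a2 and Nap1l5, with distances of 0.36, 0.42 and 0.44. Nearest to Thbs1 were Socs2, Heph and Plau (0.26, 0.34 and 0.39), and nearest to Smoc2 were Tgfb1i1, Crispld2 and Mid1ip1 (0.15, 0.21 and 0.21). Smoc1 was nearest to Map2k1, Btbd3, Adamts10, Tril and Bzw2, at 0.15 to 0.17. Nearest to Spock2 were Srgap3, Abcc1 and Cyb5r1 (0.13, 0.15 and 0.16).

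Changes of cell type markers in the adult mutant ovaries were mixed, where 16.2% of all genes passed the threshold (0.324% at P3). The granulosa list includes Foxl2 itself, the mutated gene, which is among its falls at both ages. Of 7 measured granulosa genes 6 fell (list mean 8.73 to 9.67 in wild-type and 6.37 to 6.52 in mutant ovaries), of 6 smooth muscle genes 6 fell (8.16 to 8.50 against 6.78 to 7.42), and of 6 endothelial genes 4 fell (7.38 to 8.06 against 6.72 to 7.15). Of 8 markers of Sertoli cells, which nurse the germ cells in testis, 7 rose (5.67 to 6.18 against 8.38 to 8.66). Of 6 stroma genes 1 rose and 1 fell (9.53 to 9.83 against 9.40 to 9.78), of 5 leukocyte genes 2 rose (6.42 to 6.48 against 6.78 to 7.42), and of 4 platelet genes 0 passed (4.34 to 4.37 against 4.39 to 4.53). Of 6 oocyte, 3 corpus luteum and 4 adipocyte genes 0 passed, of 5 theca and Leydig genes 1 rose and 1 fell, and of 4 cartilage genes 1 fell. At P3, 3 of 7 granulosa genes and 2 of 6 oocyte genes fell and 0 of 7 Sertoli genes passed, with list means on the log2(signal + 16) scale of 8.32 to 8.36, 11.6 to 11.7 and 6.98 to 7.49 in wild-type pools and 6.65 to 6.69, 10.32 to 10.63 and 8.02 to 8.08 in KO pools. Of 5 theca and Leydig genes 1 fell at P3, Hsd3b1, a steroid synthesis enzyme (-4.97 ± 0.25, limma adjusted p = 0.00653), and the list means were 7.87 to 8.11 in wild-type and 7.34 to 7.37 in KO pools. The lower mean came from Hsd3b1. Cyp17a1 (1.22 ± 0.56), Hsd17b3 (1.05 ± 0.33), Cyp11a1 (-0.16 ± 0.34) and Star (-0.29 ± 0.23) did not pass. No gene of the other cell type lists passed at P3. Of these, list means were lower in both KO pools for endothelial (7.10 to 7.52 against 7.74 to 7.99 in wild-type), corpus luteum (6.28 to 6.54 against 7.32 to 7.43), stroma (11.76 to 12.10 against 12.16 to 12.24) and smooth muscle (8.64 to 8.69 against 8.75 to 8.80), and higher for adipocyte genes (7.26 to 7.92 against 6.20 to 6.54). The lower corpus luteum mean came mostly from Akr1c18 (-2.55 ± 0.34), with Sfrp4 at -0.08 ± 0.28 and Ptgfr at -0.27 ± 0.36. Differences were above 0 for 2 of 6 endothelial, 2 of 6 stroma and 3 of 6 smooth muscle genes. The leukocyte, platelet, spermatid and cartilage means overlapped. The part of these cell types in the members' differences was not tested.

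Genes around the members in the matrix changed in part in the adult mutant ovaries, where the median difference over all genes was -0.02 and 16.2% of all genes passed. In testis against wild-type ovary 60.3% of all genes passed, so counts near that share are not a result about a list. Of 3 close relatives, all given by name, Comp, a thrombospondin of cartilage, fell by 1.10 ± 0.29 (limma adjusted p = 0.0261), and Fstl1 and Spock3 did not pass (0.11 ± 0.28 and -0.02 ± 0.12). Comp was higher in testis than in wild-type ovary by 3.06 ± 0.29 (adjusted p = 4.71e-06), where Fstl1 was lower (-2.64 ± 0.28, adjusted p = 1.19e-05). Of 12 thrombospondin receptors and partners 4 fell and 1 rose, with a median of -0.31. The syndecan gene Sdc1 fell by 1.53 ± 0.23, Sdc4, another syndecan, rose by 1.39 ± 0.14, and Itgb3, an integrin chain that binds thrombospondins, fell by 1.05 ± 0.18. The receptor genes Cd36 and Cd47 stood at -0.35 ± 0.23 and -0.26 ± 0.14 and did not pass. All 12 were lower in testis than in wild-type ovary, at a median of -2.03 (all genes -0.15), with the integrin gene Itgav at -3.09 ± 0.18, Sdc1 at -2.97 ± 0.23 and Itgb3 at -2.68 ± 0.18. At P3 0 of 12 passed (median -0.30).

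Of 14 other matricellular genes 1 fell in the adult mutant, Postn, which encodes the collagen-binding protein periostin (-1.56 ± 0.16, limma adjusted p = 9.88e-05), and the median was -0.07. In testis 10 of the 14 were lower than in wild-type ovary (median -1.61), among them Tnc, which encodes tenascin C (-3.44 ± 0.55), the fibulin gene Fbln1 (-3.02 ± 0.30) and Ecm1 (-2.17 ± 0.31). At P3 0 passed (median -0.17). Of 22 other genes with thrombospondin type 1 repeats 4 fell and 3 rose in the adult mutant (median -0.17). Sema5b, a semaphorin, rose by 1.84 ± 0.13, and the protease genes Adamts15 and Adamts12 stood at 1.28 ± 0.30 and -1.18 ± 0.15. In testis 11 of the 22 were lower and 3 higher (median -0.63), a share near that of all genes (60.3%), with Sema5a at -3.50 ± 0.32, Adamts1, a protease gene of ovulation, at -2.94 ± 0.25 and Adamts19 at -2.44 ± 0.24. At P3, 1 of 21 passed, Spon1, an adhesion protein of the floor plate, which rose by 2.11 ± 0.18 (adjusted p = 0.0179) and stood at 0.51 ± 0.41 in the adult mutant (adjusted p = 0.469).

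**Figure D5:**
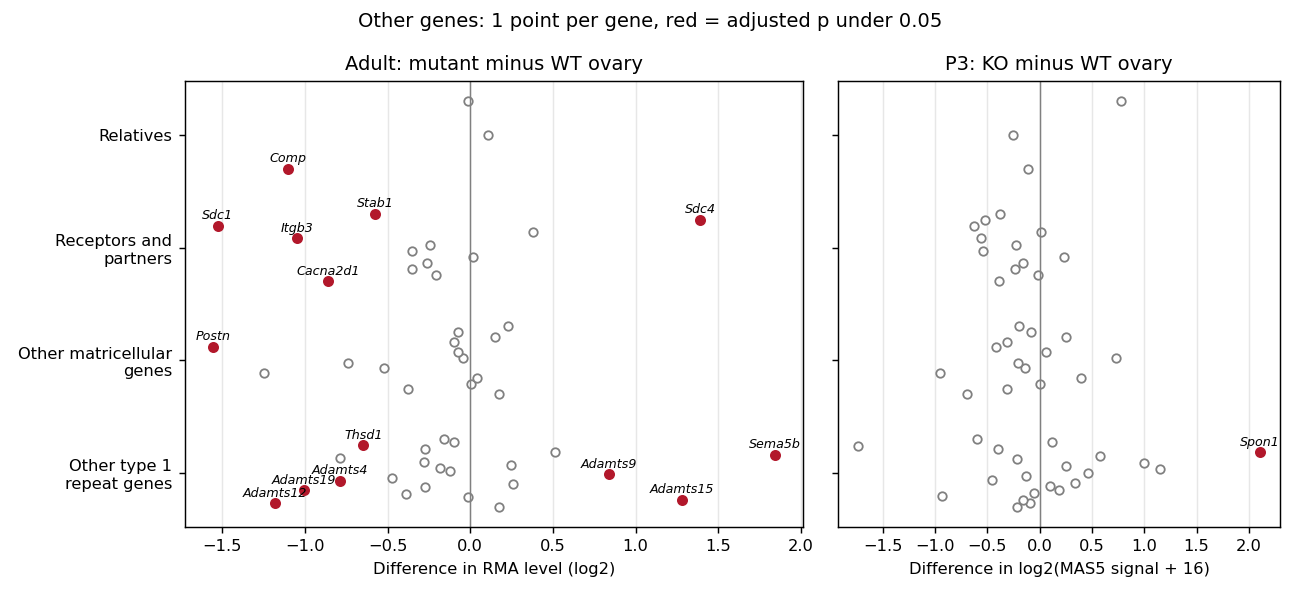
Difference of each measured gene (x axis, log2 units) in 4 groups of related genes, for adult mutant against wild-type ovary (left) and P3 KO against wild-type ovary (right). Red named points have an adjusted p under 0.05, and grey open points do not. The adult panel shows falls and rises side by side in the receptors and in the type 1 repeat genes, and the P3 panel shows 1 named gene, Spon1.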

How the data were processed

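The members, the gene lists and the tests were chosen with earlier results of these data known. Adult values are log2 levels that the authors made with RMA in the Affymetrix Expression Console, and those of P3 are linear intensity values (MAS5) deposited by the authors, both per the submitters' processing notes, which give no versions. Per the labels' protocols, 300 ng of RNA was labelled for adult and 1 µg for P3 arrays.

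Probe sets with 1 annotated gene were used (21789 adult, 34958 P3). Symbols were updated through the RefSeq table of GRCm38.p6. In R 4.3.3, limma 3.58.1 (lmFit, eBayes with trend, two-sided) fitted the 8 adult arrays together and the 4 P3 arrays as log2(signal + 16), with no filter on low values, and p-values were adjusted by Benjamini-Hochberg over all genes. In simulated adult data 72 of 100 genes changed by 1 log2 unit and 98 of 100 changed by 2 were recovered. Only these genes among 19938 were changed, far fewer than were called in the real data, so these rates need not hold there. Adult samples are separate animals and P3 samples separate pools. The number of arrays limits the precision. Named genes were the members, Foxl2, up to 3 of the largest called changes per list, the nearest profiles and the strongest reversals between ages. Cd36, Cd47, Fstl1 and Spock3 in the adult mutant, the adult value of Spon1, and Lrrc2 fall outside that rule and were chosen after their values were seen. The same holds for the corpus luteum, theca and Leydig genes named at P3 without a call. Lists gave counts and medians with no set test. Alternatives changed the probe set rule, scaling, filter, trend, pseudocount, replicate block, arrays and groups fitted.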

Additional observations from a re-analysis of the deposited data

Results flagged for a closer look

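Smoc1 differed between the ages under the same kind of contrast. In the adult it was lower in each of the 3 mutant ovaries than in either wild-type ovary, by a mean difference of -1.26, and at P3 it was higher in both KO pools than in either wild-type pool, by 1.98 on the log2(signal + 16) scale. The difference between the ages was not tested, and the ages also differ in platform, labelling, pooling, perfusion and allele, which cannot be told apart from age here. This reversal was known when the genes were chosen.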

How the results depend on the processing

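Of 424 tested single-gene values under the alternatives, 403 kept their direction and their side of the threshold, 8 lost the call, 5 gained it and 8 changed sign, all of the last without a call. The 22 untested Smoc1 values kept their direction, but that direction helped to choose the genes, so nothing is read from it. In adult mutant against wild-type ovary the number of members called was 5, 3 in a fit of the ovaries alone, and 3 to 6 without 1 array. The genes called there numbered 3232, and 1731 in the fit of the ovaries alone. At P3 the members called were 0, and 1 with the replicate number as a block (Spock1, adjusted p = 0.0377). The genes called at P3 numbered 59, with 197 when dim genes were left out, 22 with the mean of all probe sets, 0 without the intensity trend, 305 with the replicate block and 0 to 22 without 1 array, where the lone array of a group is assumed to vary like the other group. Same-numbered samples did not pair (correlations of deviations -0.0028 to 0.079), so the block is a number only. In the 3 adult comparisons the block gave 2674, 11433 and 12136 genes in place of 3232, 12028 and 12328, and 5, 8 and 9 members as before. Leaving out 1 array turned the sign of Sparc (-0.15 to 0.021, and 0.0049 in another omission), Spock2 (-0.0532 to 0.75) and Thbs4 (-0.35 to 0.36) at P3, of Sparcl1 in the adult mutant (-0.34 to 0.0738), and of Spock1 (-0.0027 to 0.12) and Spock2 (-0.24 to 0.61) in testis against wild-type ovary. No detection calls were used here, so no background floor was set for dim genes; the filter on dim genes removed Spock1 from the adult and Thbs1 from the P3 genes tested.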

Other observations

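Smoc1 was not alone in its reversal. Of 16553 genes named in both tables, 90 had groups without overlap and a difference of at least 1 log2 unit at both ages, 78 of them in the same direction and 12 in opposite directions. Of the 12, 3 were lower in the adult mutant and higher in the P3 KO (Gdpd2, Smoc1 and Lrrc2) and 9 were the other way round. Ranked by the smaller of the differences, Elovl2 (4.24 in the adult, -2.08 at P3), Gdpd2 (-1.93, 1.93), Car5b (1.99, -1.90), Cited1 (1.80, -2.05) and Lratd1 (2.39, -1.33) came before Smoc1. These values are a description, with no test across the tables.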
